A study of Mus musculus with 6 samples.

Results

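Toll-like receptors are germline-encoded sensors of microbial and endogenous molecules, and 10 of them were followed across the cells of mouse lymph nodes: Tlr1, Tlr2, Tlr3, Tlr4, Tlr6, Tlr7, Tlr8, Tlr9, Tlr11 and Tlr13. The genes were taken by symbol, and all 10 were listed among the 32285 genes of the myeloid-enriched libraries and the 54752 genes of the stroma-directed libraries. Tlr1, Tlr2, Tlr4 and Tlr6 act at the cell surface on lipopeptides and lipopolysaccharide. Tlr3, Tlr7, Tlr8, Tlr9, Tlr11 and Tlr13 act in endosomes, where Tlr3 reads double-stranded RNA, Tlr7 and Tlr8 single-stranded RNA, Tlr9 unmethylated CpG DNA, Tlr13 bacterial ribosomal RNA and Tlr11 the profilin of protozoa. All of them signal through the adaptor Myd88 except Tlr3, which uses Ticam1 (TRIF), while Tlr4 can use both. The endosomal receptors depend on the chaperone Unc93b1 to leave the endoplasmic reticulum.

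The inguinal and axillary nodes came from C57Bl/6 mice that carried no tumour (naive), a YUMM1.7 melanoma or a YUMMER1.7 melanoma, and the last is a more immunogenic line derived from YUMM1.7 by ultraviolet mutagenesis. Nodes of several mice were pooled into each droplet-based 3′ library, with 1 library per arm in each of 2 cell fractions and therefore 6 libraries in all. One fraction was enriched with CD11b and CD11c beads and is called enriched here. The other is labelled as de-enriched for CD45 and is called depleted here, although its protocol describes CD45 beads used to enrich stromal cells positively, so what this fraction was selected for is uncertain. The labels used here state neither age and sex nor the size and duration of the tumours.

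With 1 library per arm there was no replicate of any arm, so no test was made and no p-value is given. Levels are given as CPM, the unique transcript counts (UMIs) of a gene per 10 to the power 6 UMIs of the same cell class in the same library. Intervals are 95% exact intervals for counting error only and do not hold the variation between mice. Values given in a row of 3 stand in the order naive, YUMM1.7 and YUMMER1.7. Because the pool of a class can change in makeup, a lower level in a class and fewer cells of a high-level subset cannot be told apart unless the clusters within the class are given. Levels of different receptors are not compared with each other, since 3′ capture efficiency differs between genes.

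Sequencing gave 86471908, 78305030 and 78551522 UMIs in the enriched libraries, of which 9958, 7086 and 6482 cells passed the filters. For the depleted libraries the totals were 78240566, 76861915 and 67709285 UMIs, with 12382, 8287 and 6554 cells. The 10 receptors together gave 11868, 13636 and 15039 UMIs in the enriched and 4449, 4247 and 4054 UMIs in the depleted libraries. Pairs of libraries shared 6 to 49 cell barcodes. Lymphocytes, which carry CD45, made up most of the naive depleted library: 7110 of its cells were B cells and 2321 were T cells. Blood endothelial, lymphatic endothelial and fibroblastic cells numbered 9, 21 and 8 there, under the 50 cells asked of a class, so stromal levels could be given for the tumour arms only. Clusters were named from markers, and 11 classes of the enriched and 10 of the depleted fraction were used. Macrophages differed in depth, with medians of 1418, 11684.5 and 17356 UMIs per cell.

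On the mouse genome GRCm38, with GENCODE vM21, the 10 genes are all protein-coding. Tlr1 (chr5:64924679-64933563, minus strand) and Tlr6 (chr5:64952031-64960097, minus strand) are neighbours separated by 18467 bases. Tlr7 (chrX:167304929-167330558) and Tlr8 (chrX:167242696-167264329) lie 40599 bases apart on the minus strand. Tlr13 (chrX:106143204-106160493, plus strand) is also X-linked. The others are Tlr2 (chr3:83836272-83841767, minus strand), Tlr3 (chr8:45395665-45411080, minus strand), Tlr4 (chr4:66827584-66930284, plus strand), Tlr9 (chr9:106222598-106226883, plus strand) and Tlr11 (chr14:50357914-50363663, plus strand). Of the 10, Tlr3 overlaps an antisense gene, Gm45542, which had 1, 5 and 2 UMIs in the class where Tlr3 had 811, 466 and 393.

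RefSeq windows of 250 bases before a transcript start (assembly GRCm38.p6) were matched for 8 of the 10 genes, with Tlr4 and Tlr7 not matched. These genes had 10 windows, because Tlr1 and Tlr6 had 2 each. A gene was counted if any of its windows held the motif, whereas the background shares count single windows, so the measures are unlike. The matches of Tlr1 and Tlr6 lay in only 1 of their 2 windows. The windows were searched on both strands for the PU.1 core GAGGAA, the interferon response element core (GAAA, any 2 bases, GAAA), the ETS-IRF composite (GGAA, any 2 bases, GAAA), the AP-1 motif TGANTCA and NF-kB. PU.1 is a myeloid and B cell transcription factor. Its core occurred in 5 of the 8 genes (Tlr1, Tlr8, Tlr9, Tlr11 and Tlr13), against 23.3% of 32841 windows of the same length. The interferon response core occurred in Tlr6 and Tlr11, against 2.98% of windows, TGANTCA in Tlr9, against 6.75%, and NF-kB in Tlr2 and Tlr3, against 7.25%. The ETS-IRF composite occurred in none of the 8, against 2.3% of windows. A match describes letters and is no evidence of binding. The exon-free upstream sequences of 4 receptors are shown 5′ to 3′ on the strand of the gene: 1 led by cDC1 (Tlr11), 2 led by neutrophils (Tlr2 and Tlr13) and 1 led by monocytes (Tlr8). Capitals mark the PU.1 core (as its reverse complement in Tlr8), in Tlr11 also the interferon response core, and in Tlr2 a pair of overlapping NF-kB matches. They lie at chr14:50357664-50357913 (plus), chr3:83841768-83841858 (minus), chrX:106143025-106143203 (plus) and chrX:167264330-167264579 (minus).
Tlr11: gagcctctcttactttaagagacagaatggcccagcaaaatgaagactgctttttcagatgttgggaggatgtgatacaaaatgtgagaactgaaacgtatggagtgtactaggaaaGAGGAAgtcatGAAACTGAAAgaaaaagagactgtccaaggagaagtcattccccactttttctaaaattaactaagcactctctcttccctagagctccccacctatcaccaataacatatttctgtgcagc
Tlr2: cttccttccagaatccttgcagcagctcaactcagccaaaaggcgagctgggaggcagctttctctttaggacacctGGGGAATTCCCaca
Tlr13: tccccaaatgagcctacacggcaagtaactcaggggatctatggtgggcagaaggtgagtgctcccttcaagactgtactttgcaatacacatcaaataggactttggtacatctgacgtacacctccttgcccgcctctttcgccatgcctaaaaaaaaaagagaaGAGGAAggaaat
Tlr8: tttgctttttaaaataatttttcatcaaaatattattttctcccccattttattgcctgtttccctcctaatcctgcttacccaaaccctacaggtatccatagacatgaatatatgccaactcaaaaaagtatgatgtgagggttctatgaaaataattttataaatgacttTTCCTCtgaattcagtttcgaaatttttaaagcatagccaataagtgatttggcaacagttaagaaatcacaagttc

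Among the surface receptors, Tlr2, which pairs with Tlr1 or Tlr6 to bind bacterial lipopeptides, was highest in neutrophils of the enriched fraction in all 3 arms, at 251, 232 and 151 CPM. Classical monocytes followed with 155, 130.2 and 120.9 CPM and non-classical monocytes with 150.4, 134 and 129 CPM. The intervals of these 2 monocyte classes overlapped in all 3 arms. Macrophages (103, 77.1 and 72.5 CPM) and cDC2 (71.3, 50.4 and 53.8 CPM) were intermediate, whereas cDC1 (12.4, 11.7 and 10.1 CPM), migratory dendritic cells (10.8, 7.67 and 9.81 CPM) and lymphocytes (1.18 to 5.77 CPM) were low. At least 1 Tlr2 UMI was found in 45.7%, 39.4% and 45.6% of neutrophils, whose median depths were 3114.5, 2725 and 3883 UMIs. T cells, a background class with median depths of 6491, 6814 and 6959.5 UMIs, gave 1.48%, 1.97% and 2.38%. When each cell was thinned to 2000 UMIs the shares were 32.8%, 31.7% and 23.8% of neutrophils and 0.256%, 0.297% and 0.247% of T cells, after leaving out 114, 78 and 66 neutrophils and 66, 19 and 15 T cells that were shallower. In the stroma of the tumour arms, Tlr2 stood at 16.4 and 16.8 CPM in blood endothelium, 15.7 and 15.3 CPM in lymphatic endothelium and 10 and 8.69 CPM in fibroblastic cells (YUMM1.7, then YUMMER1.7).

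The partners of Tlr2 had different distributions. Tlr1 was highest in macrophages (51.6, 54.7 and 61.4 CPM), then in classical monocytes (33.2, 39.7 and 43.0 CPM). It also reached lymphocytes: B cells had 32.0, 34.2 and 22.7 CPM and T cells 17.1, 18.3 and 15.7 CPM in the enriched fraction. The depleted fraction gave B cells 38.4, 39.4 and 34.5 CPM and T cells 19.6, 16.7 and 26.9 CPM. Tlr1 was lowest in cDC1, at 1.55, 1.67 and 1.86 CPM. Tlr6, the other partner, was concentrated in neutrophils at 49.9, 52.5 and 33.6 CPM, with non-classical monocytes next at 10.6, 15 and 11.5 CPM. Tlr6 stayed at or under 6.81 CPM in every class of the depleted fraction. B and T cells of the enriched fraction thus carried Tlr1 with Tlr2 at 2.33 to 5.77 CPM, whereas neutrophils carried Tlr2 and Tlr6 with Tlr1 at 3.35, 4.9 and 17.3 CPM.

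Tlr4, the lipopolysaccharide receptor, was high in 2 myeloid classes whose intervals overlapped in every arm: macrophages at 125, 106 and 108 CPM and neutrophils at 116, 113 and 111 CPM. Classical monocytes held 26.0, 23 and 28.6 CPM and non-classical monocytes 24.5, 18.6 and 18.8 CPM. Migratory dendritic cells were lowest, at 0.774, 0.37 and 0.589 CPM. Its co-receptors differed between these classes: Cd14, which hands over lipopolysaccharide, stood at 828, 849 and 1003 CPM in neutrophils and 50.6, 43.6 and 72.0 CPM in macrophages. Ly96, which encodes the MD-2 subunit needed for ligand binding, showed the opposite order, with 31.5, 25.2 and 25.9 CPM in neutrophils and 72.0, 82.5 and 78.5 CPM in macrophages. Tlr4 was also a receptor of stroma, with 68.1 and 91.0 CPM in lymphatic endothelium, 48.6 and 30.8 CPM in blood endothelium and 40.9 and 33.5 CPM in fibroblastic cells of YUMM1.7 and YUMMER1.7 nodes. B cells of the depleted fraction had 11.6, 13.1 and 9.18 CPM and T cells 0.428, 0.408 and 0 CPM.

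**Figure D1:**
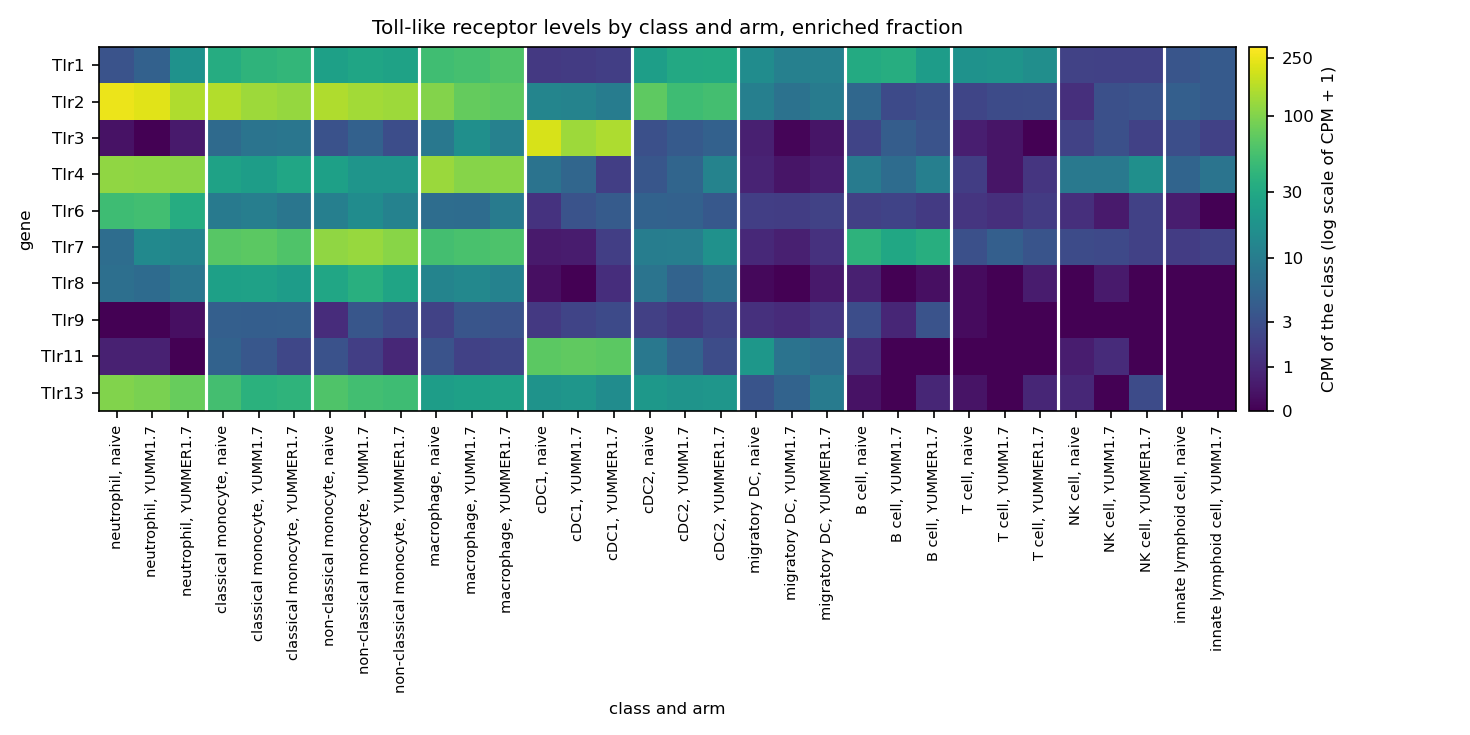
Level of each of the 10 receptors (rows) in every class and arm of the enriched fraction (columns), as colour on a log scale of CPM + 1. Tlr2, Tlr6 and Tlr13 are brightest in neutrophils, Tlr7 and Tlr8 in non-classical monocytes, and Tlr3 and Tlr11 in cDC1, where Tlr3 reached 209.6 CPM in the naive library.

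In the enriched fraction Tlr3 and Tlr11 were highest in cDC1, the dendritic cells that cross-present antigen. Tlr3 stood at 209.6 CPM (195 to 225) in naive, 130.1 CPM (119 to 142) in YUMM1.7 and 146 CPM (132 to 162) in YUMMER1.7 cDC1. The next class, macrophages, held 8.88, 15.9 and 11.3 CPM. Of all Tlr3 UMIs in named classes, cDC1 gave 83.4%, 61.2% and 58.3%. A Tlr3 UMI was found in 80.7%, 71.7% and 71.6% of cDC1 (median depths 18253, 22341 and 22378.5 UMIs) and in 0.43%, 0.281% and 0% of T cells. At 2000 UMIs per cell the cDC1 shares were 32.7%, 20% and 17.5%, with 12, 8 and 8 shallower cells left out, so the naive share was the highest of the 3 with and without thinning.

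Tlr11, absent as a functional gene in humans, had 71.1, 74.0 and 69.7 CPM in cDC1, with a UMI in 59.6%, 64.2% and 60.4% of these cells (14.2%, 15.2% and 11.1% after thinning). Migratory dendritic cells followed with 19.3, 7.85 and 6.67 CPM. Of all Tlr11 UMIs in named classes, cDC1 gave 31.5%, 52.5% and 55.3%. In the naive library the more numerous migratory dendritic cells held more Tlr11 UMIs (424) than cDC1 (275). T cells had no Tlr11 UMI in any enriched library, and 0 UMIs in the naive T cells allows up to 0.269 CPM. Its partner for profilin, Tlr12, which was listed with the other innate sensors and not among the 10, stood at 20.7, 12.8 and 11.5 CPM in cDC1 and 45.0, 42.1 and 38.7 CPM in macrophages. In the depleted fraction, counted with another Cell Ranger version and gene list and not ranked with these, plasmacytoid dendritic cells had 33.0, 44.7 and 48.0 CPM. cDC1 also held the adaptor of Tlr3, Ticam1, at 14.7, 8.09 and 13 CPM, the chaperone Unc93b1 at 415, 383 and 381 CPM, and the Tlr4-related surface protein Cd180 at 157, 126 and 139 CPM. In contrast cDC1 had almost no Tlr7 (0.517, 0.558 and 1.86 CPM).

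Tlr3 was also found in the endothelium of the depleted fraction. Lymphatic endothelial cells had 41.6 and 34.9 CPM and blood endothelial cells 26.0 and 32.4 CPM in YUMM1.7 and YUMMER1.7, with overlapping intervals in both. Fibroblastic cells had 12.5 and 11.6 CPM, and B cells 3.06, 3.55 and 3.27 CPM over the 3 arms.

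Both receptors of single-stranded RNA, Tlr7 and Tlr8, were found in monocytes and macrophages, while only Tlr7 was prominent in plasmacytoid dendritic cells and B cells. Tlr7 was highest in non-classical monocytes of the enriched fraction at 114, 122 and 107 CPM. Classical monocytes had 66.5, 69.7 and 60.8 CPM, macrophages 53.9, 57.5 and 59.5 CPM and B cells 39.1, 29.0 and 34.5 CPM. Plasmacytoid dendritic cells of the depleted fraction, which make type I interferon on Tlr7 or Tlr9 engagement, had 153, 153 and 165 CPM. A Tlr7 UMI was found in 66.7%, 67.3% and 63.5% of them (median depths 8675, 9262.5 and 10546 UMIs) and in 2.63%, 2.34% and 4% of T cells (5628, 5478.5 and 7099.5 UMIs). At 2000 UMIs per cell, with 4, 0 and 1 shallower plasmacytoid dendritic cells and 104, 47 and 5 T cells left out, these shares were 24.0%, 26.5% and 26.3% against 1.26%, 0.743% and 0.69%. Plasmacytoid dendritic cells of the depleted fraction also carried Unc93b1 at 694, 739 and 714 CPM. In the enriched fraction, not ranked with these, it stood at 621, 732 and 698 CPM in macrophages and 175, 164 and 137 CPM in neutrophils.

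Tlr8, the X-linked neighbour of Tlr7, was found in monocytes and not in plasmacytoid dendritic cells. Non-classical monocytes had 28.2, 35.2 and 26.9 CPM and classical monocytes 24.7, 25.4 and 22.2 CPM, with intervals that overlapped in the naive and YUMMER1.7 libraries and not in YUMM1.7. Macrophages had 12, 13.3 and 11.4 CPM. Neutrophils had 7.03, 6.3 and 8.39 CPM, cDC2 7.91, 5.12 and 7.23 CPM and enriched B cells 0.641, 0 and 0.276 CPM. All kept cells of the depleted libraries together gave 5, 4 and 6 Tlr8 UMIs, of which 3 lay in named classes: 1 in naive B cells, 1 in naive T cells and 1 in YUMM1.7 plasma cells.

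Tlr9 rested on few UMIs, and in the enriched fraction it was highest in classical monocytes at 4.63, 4.55 and 4.57 CPM. Plasmacytoid dendritic cells of the depleted fraction had 6.61 CPM (3.02 to 12.5), 9.47 CPM (5.18 to 15.9) and 8.27 CPM (3.97 to 15.2), on 9, 14 and 10 UMIs. B cells, another known Tlr9-bearing type, had 2.35, 3.27 and 3.42 CPM. The intervals of these 2 classes overlapped in YUMMER1.7 and lay apart in naive and YUMM1.7. The intervals of the arms overlapped within each class, so a difference of Tlr9 between arms was not detectable at this depth.

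Tlr13, like Tlr2, led in neutrophils (101, 94.5 and 79.0 CPM), then in non-classical monocytes (61.1, 52.5 and 50.3 CPM) and classical monocytes (53.2, 37.5 and 40.2 CPM). Macrophages (23.1, 24.8 and 25.3 CPM), cDC2 (19.8, 18.2 and 19.1 CPM) and cDC1 (17.6, 19 and 14.9 CPM) lay close together. B cells had 0.32, 0 and 0.829 CPM. Within the depleted fraction, migratory dendritic cells had the highest level at 4.62, 10.9 and 10.4 CPM, and lymphatic endothelium had 5.39 and 6.39 CPM in the tumour arms.

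**Figure D2:**
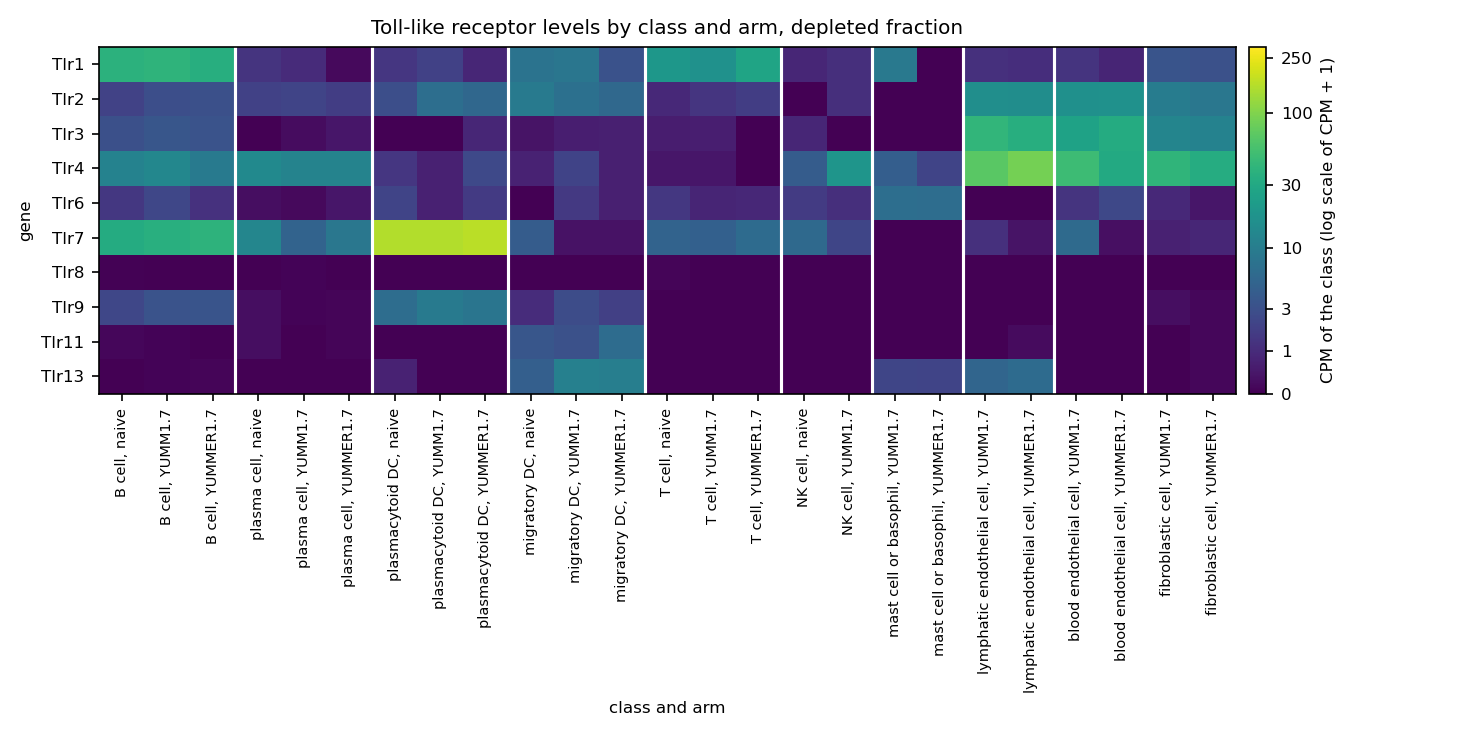
Level of each of the 10 receptors (rows) in every class and arm of the depleted fraction with at least 50 cells (columns), as colour on a log scale of CPM + 1. Plasmacytoid dendritic cells are brightest for Tlr7 (153, 153 and 165 CPM), lymphatic endothelium for Tlr4 and Tlr3, and B cells for Tlr1.

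Over the 32 points of class and library in the enriched fraction, Tlr2 and Tlr13 had the most similar profiles among pairs of receptors (Pearson r of log2(CPM + 10) 0.955). Tlr3 and Tlr11 (0.880), Tlr6 and Tlr13 (0.878) and Tlr7 and Tlr8 (0.867) followed, and Tlr1 and Tlr11 were the least similar (-0.350). These are descriptions, since the points share libraries, depth and cell classes. The 2 other genes most like each receptor, of 6560 genes considered, were Lgmn (0.871) and Lifr (0.846) for Tlr1, Igsf6 (0.979) and Nadk (0.971) for Tlr2, and Ppef2 (0.959) and Gm43914 (0.956) for Tlr3. They were Cped1 (0.929) and B430306N03Rik (0.924) for Tlr4, Kcnj2 (0.980) and Gm16556 (0.975) for Tlr6, and Abi3 (0.937) and Ms4a4a (0.931) for Tlr7. For the remaining receptors they were Ly6i (0.978) and Plod3 (0.973) for Tlr8, Tor3a (0.883) and Erp29 (0.864) for Tlr9, Gpr141b (0.955) and Pdia5 (0.954) for Tlr11, and Sh2b2 (0.982) and Pstpip2 (0.957) for Tlr13. With a pseudocount of 1 in place of 10, at least 1 of the 2 genes changed for all 10 receptors.

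**Figure D3:**
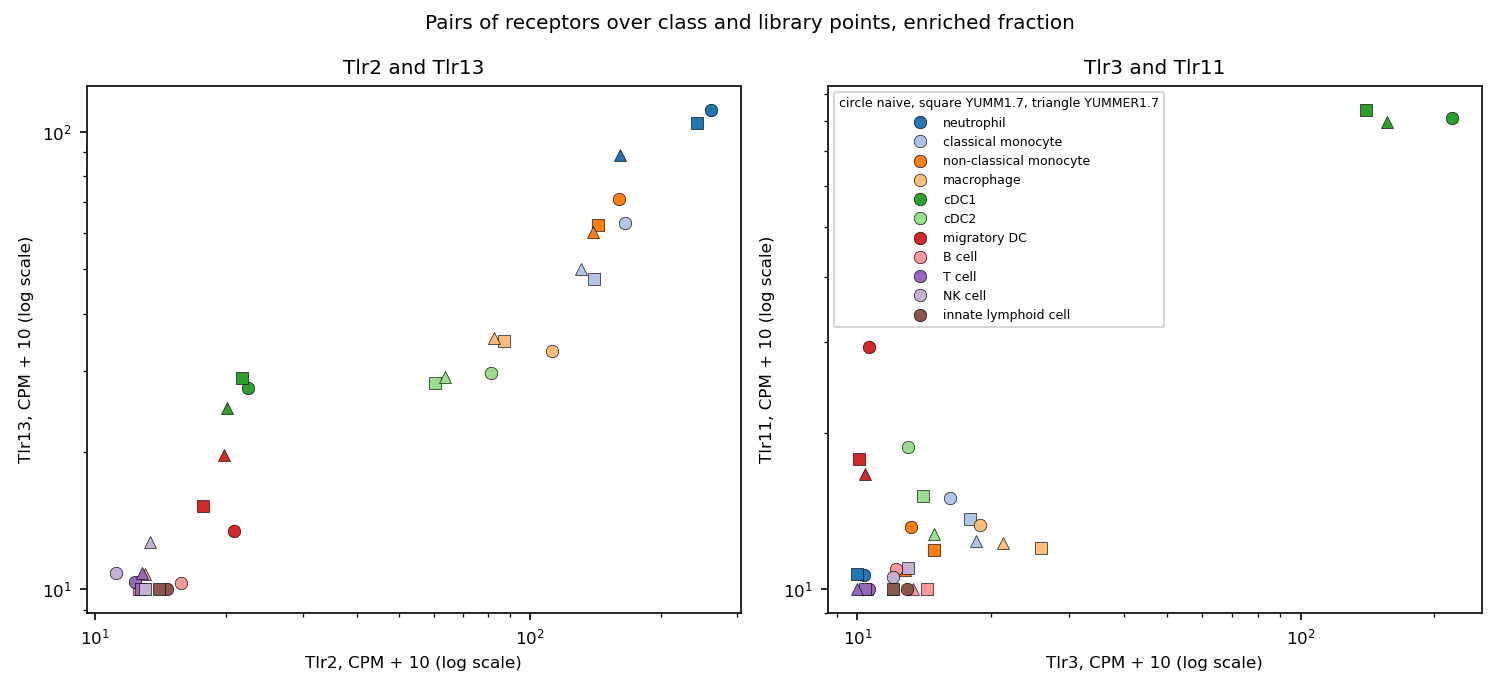
Each point is 1 class in 1 library of the enriched fraction, with CPM + 10 of 1 receptor on each axis (log scales), colour for the class and shape for the arm. Tlr2 and Tlr13 are graded over all classes from lymphocytes to neutrophils (r = 0.955), while the likeness of Tlr3 and Tlr11 (r = 0.880) comes with the 3 cDC1 points lying apart from the rest.

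Levels differed within classes, and the clusters that make up a class showed where. The clusters were built without the Toll-like receptor genes. Lymphatic endothelium consisted of cluster 19, led by Ccl20 and Cxcl9, and cluster 18, led by Mmrn1 and Stab2. Cluster 19 held 67 YUMM1.7 and 90 YUMMER1.7 cells and cluster 18 held 147 and 139. Tlr4 stood at 179.7 and 184 CPM in cluster 19 against 4.61 and 5.27 CPM in cluster 18. Tlr13 had 14.9 and 13.3 CPM in cluster 19, on 22 and 35 UMIs. No Tlr13 UMI was found in cluster 18, which allows up to 1.15 and 1.05 CPM. The Tlr4 and Tlr13 UMIs of lymphatic endothelium thus lay almost wholly in 1 of its 2 clusters. Tlr3 differed less between these clusters (54.7 and 37.7 CPM against 34.2 and 32.3 CPM), and Tlr2 stood at 29.0 and 19 CPM against 8.07 and 11.9 CPM. Macrophage markers were also higher in cluster 19: 8 and 10 of 11 had a UMI and summed to 2542 and 2854 CPM, against 573 and 405 CPM in cluster 18. The markers at 0 in cluster 19 were C1qc, Siglec1 and Cd5l in YUMM1.7 and Adgre1 in YUMMER1.7. In the naive library, with 21 cells in the whole class, 5 of the 11 markers had a UMI in cluster 19. They summed to 2131 CPM, with C1qa, C1qb, C1qc, Siglec1, Slc40a1 and Adgre1 at 0. The part of macrophage RNA in these levels was not tested.

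Macrophages held 3 clusters with different receptors. Cluster 27, led by Asic2, Ccl8, Cd209b, Cd5l and Marco, had Tlr4 at 336, 177 and 224 CPM on 56, 89 and 70 cells. Cluster 10, led by Gpm6b, Mertk and C1qa, had Tlr4 at 54.2, 51.4 and 47.3 CPM on 179, 158 and 184 cells. The reverse held for Tlr1, with 30.5, 31.8 and 39.5 CPM in cluster 27 and 72.6, 77.2 and 75.4 CPM in cluster 10. Tlr7 stood at 63.0, 68.9 and 62.6 CPM in cluster 10. The shallow cluster 12, also with Marco and Cd209b among its leading genes, had Tlr4 at 118, 47.7 and 55.6 CPM and was much of the naive class (706, 171 and 85 cells). The similar Tlr4 level of the whole macrophage class in the 3 arms therefore pooled clusters whose levels and cell numbers differed between arms.

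B cells of the depleted fraction varied in Tlr7. Cluster 3, led by interferon-induced genes such as Ifit3, had 107, 113 and 97.6 CPM on 379, 220 and 165 cells. The other B cell clusters had 25.8, 26.9 and 29.8 CPM (cluster 0), 32.8, 42.2 and 46.5 CPM (cluster 1) and 24.3, 27.5 and 30.2 CPM (cluster 4). Tlr7 was higher in the interferon-led cluster than in each of the other 3 in every arm, with no overlap of intervals.

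Neutrophils split into cluster 4, led by Acod1 and Cxcr2 (625, 368 and 442 cells), and cluster 7, led by the granule genes Camp, Ngp and Ltf (147, 48 and 203 cells). Tlr2, Tlr4, Tlr6 and Tlr13 were each higher in cluster 4. Tlr4 had 148, 135 and 203 CPM against 51.7, 57.8 and 39.9 CPM, and Tlr13 had 129, 119 and 137 CPM against 47.8, 33.7 and 33.5 CPM. Tlr6 had 66.6, 66.1 and 57.9 CPM against 16.9, 19.3 and 14.5 CPM, and Tlr2 had 273, 255 and 197 CPM against 208, 174 and 115 CPM. The granule-gene cluster was 147 of 772 naive, 48 of 416 YUMM1.7 and 203 of 645 YUMMER1.7 neutrophils. Tlr2 also differed between clusters of classical monocytes, with 230.3, 185 and 167 CPM in cluster 23, led by Vcan and F13a1, and 108, 109 and 99.6 CPM in cluster 13, led by interferon-induced genes.

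**Figure D4:**
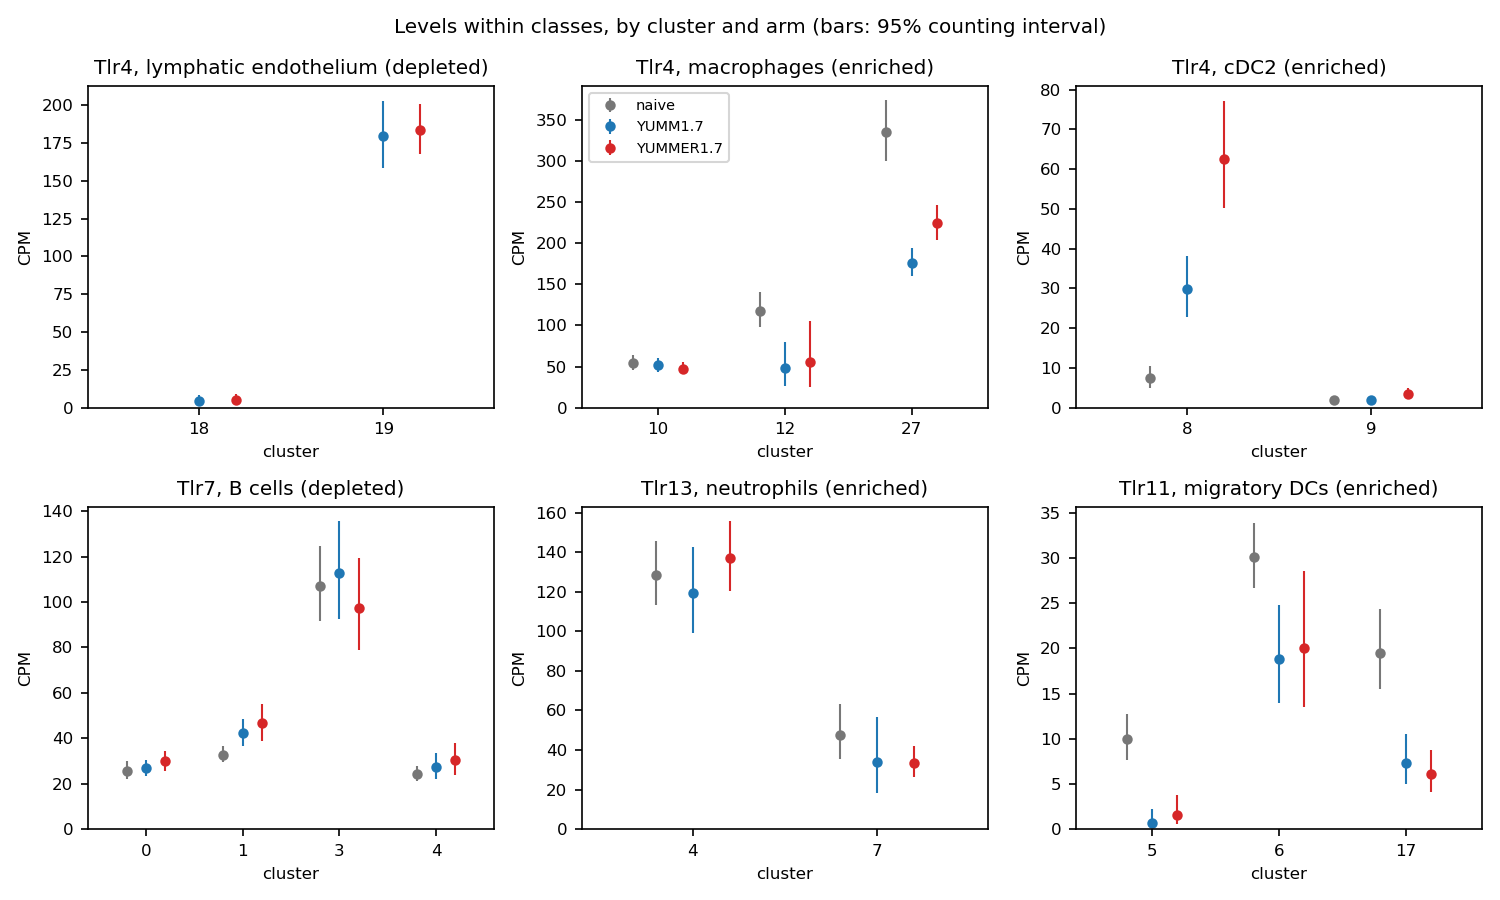
Level of a receptor (CPM, vertical axis) in each cluster of a class (horizontal axis) and arm (colour), with 95% counting intervals. Tlr4 separates lymphatic cluster 19 (179.7 and 184 CPM) from cluster 18 and macrophage cluster 27 from cluster 10, and Tlr7 is highest in the interferon-led B cell cluster 3.

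Between arms, most levels of the receptors differed little. A receptor and class pair was compared where it had at least 30 UMIs over both libraries and was called when its CPM differed at least 1.5-fold. In the enriched fraction, YUMM1.7 against naive gave 5 higher and 4 lower of 59 pairs (8.47% and 6.78%), beside 5.59% higher and 8.32% lower over all gene and class pairs. YUMMER1.7 against naive gave 7 higher and 5 lower of 61 pairs (11.5% and 8.2%), beside 8.3% and 11.5% of all pairs. YUMMER1.7 against YUMM1.7 gave 6 higher and 6 lower of 59 pairs (10.2% each), beside 6.13% and 6.22%. Depleted YUMM1.7 against naive gave 2 higher and 1 lower of 16 pairs, beside 7.72% and 6.79% of all pairs. YUMMER1.7 against naive gave 2 and 2 of 17, beside 9.03% and 9.21%, and YUMMER1.7 against YUMM1.7 gave 3 and 3 of 28, beside 5.12% and 7.65%. The depleted receptor shares were thus 12.5% and 6.25%, then 11.8% and 11.8%, then 10.7% and 10.7%. Between the tumour arms the receptor shares lay above those of all pairs in both fractions and directions. Against naive, the higher shares lay above and the lower shares below those of all pairs, except for lower pairs in depleted YUMMER1.7. Each share rests on 1 to 7 called pairs, and its difference from all pairs was not tested. Median log2 ratios of the receptors were -0.03, -0.06 and -0.02 in the enriched and 0.11, 0.09 and -0.05 in the depleted fraction for these comparisons in turn, beside -0.02, -0.05, -0.02, -0.00, -0.03 and -0.04 over all pairs. Comparisons with naive share the naive library.

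Dendritic cells of the enriched fraction held several of the called pairs. Tlr4 in cDC2 stood at 3.58, 5.42 and 11.8 CPM, a log2 ratio to naive of 0.60 (0.08 to 1.14) in YUMM1.7 and 1.72 (1.22 to 2.23) in YUMMER1.7, and of 1.12 (0.71 to 1.53) between the tumour arms. The difference was largest in cDC2 cluster 8, led by Retnla, Mmp12 and Lpl, which had 7.38, 29.8 and 62.7 CPM on 300, 134 and 84 cells. Cluster 9, led by Ctnnd2 and Cd209a, had 1.85, 1.99 and 3.46 CPM on 817, 1174 and 650 cells. Macrophage and monocyte markers moved with it in cluster 8. All 11 macrophage markers had UMIs in each arm and summed to 647, 2614 and 6805 CPM, against 394, 286 and 282 CPM in cluster 9. The 9 classical monocyte markers in cluster 8 summed to 804, 2174 and 2897 CPM. Its 10 cDC2 markers summed to 2051, 2014 and 1644 CPM, below its macrophage markers in both tumour arms. The macrophage and monocyte part in the result was not tested. The YUMMER1.7 ratio was 0.60 with doublets kept, 0.49 and 0.37 at Leiden resolutions of 0.5 and 2, and 0.90 (-0.00 to 1.86) in cluster 9 alone. The YUMM1.7 ratio was -0.01 with doublets kept and -0.14 at resolution 0.5.

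Tlr11 was lower in cDC2 and migratory dendritic cells of both tumour arms in the enriched fraction. In cDC2 it stood at 8.80, 5.12 and 2.77 CPM, with log2 ratios to naive of -0.78 (-1.20 to -0.37) and -1.67 (-2.32 to -1.06), and of -0.88 (-1.56 to -0.25) between the tumour arms. The YUMMER1.7 ratio was -1.01 at Leiden resolution 2. Both cDC2 clusters showed this order, with 15.7, 13.7 and 10.6 CPM in cluster 8 and 5.65, 3.92 and 1.5 CPM in cluster 9. In migratory dendritic cells, which have come from tissue and carry Ccr7, Tlr11 stood at 19.3, 7.85 and 6.67 CPM. The log2 ratios were -1.30 (-1.65 to -0.96) and -1.53 (-1.92 to -1.16) to naive and -0.23 between the tumour arms. The 3 largest of the 5 clusters of this class had their highest value in the naive library: 30.1, 18.8 and 20 CPM in cluster 6, 19.5, 7.37 and 6.12 CPM in cluster 17 and 9.99, 0.621 and 1.61 CPM in cluster 5. Summed cDC1 markers in the enriched migratory dendritic cells went the other way, at 309, 448 and 646 CPM. Most of each sum was Irf8, which is on that marker list and stood at 235, 397 and 584 CPM. The sum therefore says little about the other cDC1 markers. After thinning to 2000 UMIs the YUMMER1.7 ratio of Tlr11 to naive was -0.39. Migratory dendritic cells of the depleted fraction did not show this order, with Tlr11 at 3.55, 3.11 and 6.49 CPM. In cDC1 itself the Tlr11 ratios to naive were 0.06 and -0.03.

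Tlr3 in its leading class, cDC1, was lower in both tumour arms, with log2 ratios of -0.69 (-0.86 to -0.52) in YUMM1.7 and -0.52 (-0.70 to -0.34) in YUMMER1.7, and 0.17 (-0.03 to 0.37) between them. After thinning to 2000 UMIs the YUMMER1.7 ratio was -0.98 (-1.66 to -0.34) and that between the tumour arms -0.21 (-0.97 to 0.52). The summed cDC1 markers of these cells in the enriched fraction were 9179, 8730 and 8909 CPM. Tlr7 in cDC2 was higher in YUMMER1.7 only by this call, at 10.3, 10.4 and 16.7 CPM, with log2 ratios of 0.02 and 0.70 (0.37 to 1.04) to naive and 0.68 (0.37 to 1) between the tumour arms. Macrophages of this fraction held Tlr7 at 53.9, 57.5 and 59.5 CPM. Macrophage markers in cDC2 cluster 8 summed to 647, 2614 and 6805 CPM, and the macrophage part in these Tlr7 ratios was not tested.

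Tlr13 over the whole class of migratory dendritic cells was higher in both tumour arms and in both fractions, while its clusters differed. In the enriched fraction it stood at 3.42, 5.17 and 9.62 CPM, with log2 ratios to naive of 0.60 (0.07 to 1.12) and 1.49 (1.04 to 1.95), and 0.89 (0.41 to 1.39) between the tumour arms. Cluster 17, which had 6.92, 7.12 and 15.5 CPM, was 453 of 2162 naive, 406 of 999 YUMM1.7 and 453 of 918 YUMMER1.7 cells of the class. Cluster 5 had 2.22, 4.35 and 4.82 CPM and cluster 6 had 2.77, 2.26 and 2 CPM. The depleted levels of 4.62, 10.9 and 10.4 CPM gave 1.24 (0.28 to 2.28), 1.17 (0.20 to 2.22) and -0.07 (-0.81 to 0.66). Neutrophil markers in the enriched migratory dendritic cells summed to 72.1, 71.0 and 189.6 CPM, and in T cells of the same libraries to 76.1, 75.0 and 191 CPM. They summed in the depleted fraction to 8.17, 23 and 15.9 CPM in this class, with Retnlg, Cxcr2 and Ly6g at 0. In 1 cluster of the class alone the enriched YUMM1.7 ratio was 0.04, and after thinning the enriched YUMMER1.7 ratio was 0.61 and the depleted YUMMER1.7 ratio 0.17.

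Neutrophils of the YUMMER1.7 library differed from the other arms in several receptors. Tlr1 stood at 3.35, 4.9 and 17.3 CPM, on 7 UMIs in YUMM1.7 and 68 in YUMMER1.7, with log2 ratios of 2.37 (1.40 to 3.49) to naive and 1.82 (0.70 to 3.19) to YUMM1.7. Tlr1 was higher in YUMMER1.7 within cluster 4 (3.03, 4.93 and 26.0 CPM on 6, 5 and 45 UMIs). Cluster 7 had 3.98, 4.82 and 10.4 CPM on 4, 2 and 23 UMIs, with overlapping intervals and only 48 YUMM1.7 cells. Tlr2 was lower, with log2 ratios of -0.73 (-0.89 to -0.57) to naive and -0.62 (-0.81 to -0.42) to YUMM1.7, and so was Tlr6, with -0.57 and -0.65 (-1.07 to -0.22). Within cluster 4 alone these ratios to naive and YUMM1.7 were -0.47 and -0.37 for Tlr2 and -0.20 and -0.19 for Tlr6. Tlr4 in the class had ratios of -0.04 and -0.05 to naive and -0.02 between the tumour arms, but within cluster 4 its YUMMER1.7 ratios were 0.45 to naive and 0.58 to YUMM1.7. The granule-gene cluster held its largest share of the class in YUMMER1.7, as given above. Neutrophil markers summed in this class of the enriched fraction to 94781, 107235 and 179273 CPM, and their part in the ratios was not tested. Tlr7 stood above naive in each tumour arm (6.70, 14 and 12.5 CPM), on 20, 20 and 49 UMIs, with log2 ratios of 1.06 (0.09 to 2.03) and 0.90 (0.12 to 1.72) to naive. In cluster 4 alone the YUMMER1.7 ratio for Tlr7 was 2.09, whereas cluster 7 had 9.95, 2.41 and 5.44 CPM on 10, 1 and 12 UMIs. Tlr13 had ratios of -0.10 and -0.36 (-0.59 to -0.13) to naive. The latter turned to 0.09 (-0.17 to 0.35) in cluster 4 alone and to 0.11 (-0.23 to 0.46) after thinning.

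Tlr1, Tlr7, Tlr8 and Tlr9 had no ratio past 1.5-fold in the monocyte or macrophage class that led each in the enriched fraction. Tlr1 in macrophages had log2 ratios of 0.08 and 0.25 to naive, Tlr7 in non-classical monocytes 0.10 and -0.09, Tlr8 in the same cells 0.32 and -0.06, and Tlr9 in classical monocytes -0.03 and -0.02. Other settings changed this for Tlr1 and Tlr9. Tlr1 in YUMMER1.7 macrophages was 0.96 (0.24 to 1.7) after thinning and -0.20 (-0.46 to 0.06) with stricter cell filters. Tlr9 in YUMM1.7 classical monocytes was 0.87 and 0.76 at Leiden resolutions of 0.5 and 2 and 1.65 after thinning, with intervals that held 0, and in YUMMER1.7 it was 1.11 after thinning (-1.17 to 4.36). Among lymphocytes, Tlr1 in enriched B cells was lower in YUMMER1.7 than in YUMM1.7, with a log2 ratio of -0.59 (-1.06 to -0.13), while the far larger B cell class of the depleted fraction had -0.19. Tlr1 in depleted T cells was higher in YUMMER1.7 than in YUMM1.7, at 0.68 (0.03 to 1.30). Tlr6 in depleted B cells gave -0.92 (-1.85 to -0.05) for the same comparison.

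Tlr7 in plasma cells of the depleted fraction was lower in the tumour arms, at 12.7, 5.10 and 8.51 CPM. Its log2 ratios were -1.31 (-1.80 to -0.81) and -0.57 (-1.06 to -0.08) to naive and 0.74 (0.32 to 1.15) between the tumour arms. After thinning, the ratios to naive were -2.70 (-4.28 to -1.24) and -1.82 (-3.52 to -0.29), on 7 and 6 UMIs in the tumour arms. Both plasma cell clusters had this order, with 14.5, 6.51 and 13.5 CPM in cluster 12 and 9.96, 4.46 and 6.57 CPM in cluster 15. B cell markers in plasma cells, at 976, 733 and 731 CPM in sum, were also highest in the naive library, and their part was not tested. Tlr7 in plasmacytoid dendritic cells had ratios of -0.00 and 0.10 to naive. Tlr1 in depleted migratory dendritic cells was lower in YUMMER1.7, with log2 ratios of -1.27 (-2.51 to -0.13) to naive and -1.37 (-2.58 to -0.28) to YUMM1.7, and thinning turned the former to 0.17. Between the tumour arms, blood endothelial Tlr4 was lower in YUMMER1.7, at -0.66 (-1.10 to -0.21), and lymphatic endothelial Tlr4 was higher, at 0.42 (0.20 to 0.64). In 1 lymphatic cluster alone the latter was 0.03. Lymphatic Tlr3 (-0.25, -0.56 to 0.05), blood endothelial Tlr2 (0.03) and depleted migratory dendritic cell Tlr11 (-0.19 and 0.87 to naive) all had intervals that held 0.

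**Figure D5:**
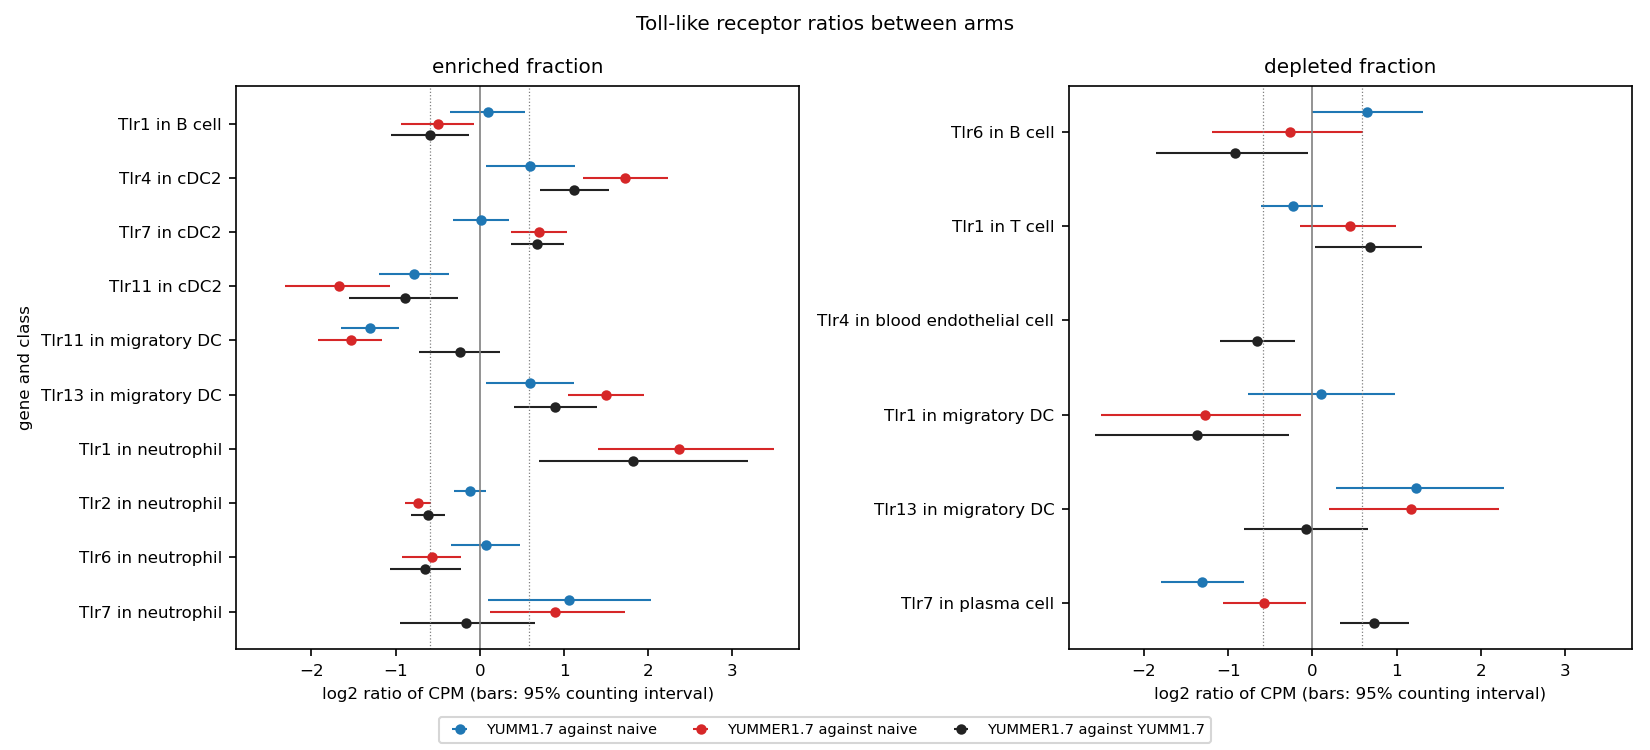
Log2 ratio of CPM between arms (horizontal axis) for the receptor and class pairs past 1.5-fold in both tumour arms or between them, with 95% counting intervals and dotted lines at 1.5-fold. In the enriched fraction Tlr4 in cDC2 lies at 0.60 and 1.72 against naive, and Tlr11 in migratory dendritic cells at -1.30 and -1.53.

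The genes that serve these receptors were counted over fixed lists by the same call, and each share is read beside that of all gene and class pairs given above. Accessory and trafficking proteins (13 genes) gave 2 higher and 11 lower of 110 pairs for YUMM1.7 against naive in the enriched fraction, and 7 higher and 10 lower of 103 pairs for YUMMER1.7. The higher shares were 1.82% and 6.8%, beside 5.59% and 8.3% of all pairs. The lower shares were 10% and 9.71%, beside 8.32% and 11.5%. Cd36, a scavenger receptor that assists Tlr2 and Tlr6, was lower in non-classical monocytes (214, 35.5 and 26.1 CPM), macrophages (21.7, 4.26 and 5.10 CPM) and cDC1 (197, 118 and 113 CPM). Ly86, which encodes the partner of Cd180, was higher in migratory dendritic cells (80.8, 142 and 188 CPM). In the depleted fraction the counts were 5 higher and 8 lower of 55 pairs and 5 and 6 of 50. Higher shares were 9.09% and 10%, beside 7.72% and 9.03% of all pairs, and lower shares 14.5% and 12%, beside 6.79% and 9.21%. There, Lbp, the lipopolysaccharide-binding protein, stood at 0.0356, 2.52 and 4.35 CPM in B cells, on 1, 44 and 56 UMIs, and at 3.07, 6.32 and 8.06 CPM in T cells. Lymphatic endothelium, which had 21 cells in the naive library and 214 and 229 in the tumour arms, held Lbp at 807 and 846 CPM in the latter. The part of free stromal RNA in the lymphocyte values was not tested. Cd36 stood at 4.52, 10.3 and 20.5 CPM in plasma cells. The chaperone Unc93b1 (17.7, 9.18 and 4.48 CPM) and Ly86 (16.6, 6.93 and 4.48 CPM) were lower in T cells. They rested on 248, 45 and 5 UMIs for Unc93b1 and 232, 34 and 5 UMIs for Ly86. B cells of this fraction numbered 7110, 4274 and 2380, and the part of their free RNA in these T cell values was not tested.

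Adaptors and proximal kinases (17 genes) had few calls: 5 higher and 7 lower of 175 pairs for YUMM1.7 and 4 and 7 of 164 for YUMMER1.7 in the enriched fraction, and 1 and 6 of 91 and 1 and 5 of 76 in the depleted fraction. Enriched shares were 2.86% and 2.44% higher, beside 5.59% and 8.3% of all pairs, and 4% and 4.27% lower, beside 8.32% and 11.5%. Depleted shares were 1.1% and 1.32% higher, beside 7.72% and 9.03%, and 6.59% and 6.58% lower, beside 6.79% and 9.21%. Myd88 was higher in cDC2 (32.3, 53.9 and 69.1 CPM). For this and the other cDC2 genes named from these lists, the macrophage and monocyte part was not tested. Tab3, part of the complex that activates the kinase Map3k7, was lower in T cells (23.4, 15.5 and 14 CPM). Pik3ap1, the adaptor BCAP, was lower in plasma cells (26.2, 11.1 and 13.9 CPM).

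For feedback inhibitors (16 genes) the counts were 3 higher and 11 lower of 142 pairs and 10 and 22 of 131 in the enriched fraction, with 7.75% and 16.8% lower beside 8.32% and 11.5% of all pairs, and median log2 ratios of -0.11 and -0.21 beside -0.02 and -0.05 over all pairs. They were 3 and 22 of 77 and 4 and 14 of 63 in the depleted fraction, with 28.6% and 22.2% lower beside 6.79% and 9.21% of all pairs, and medians of -0.22 and -0.19 beside -0.00 and -0.03. Higher shares were 2.11% and 7.63% in the enriched fraction, beside 5.59% and 8.3%, and 3.9% and 6.35% in the depleted, beside 7.72% and 9.03%. In cDC2, Tnip3 (119, 31.6 and 15 CPM), the deubiquitinase gene Tnfaip3 (282, 132 and 113 CPM) and Nfkbiz (369, 209.6 and 184 CPM) were lower, and the phosphatase gene Dusp1 was lower in cDC1 (417, 234 and 192 CPM). In the depleted fraction Nfkbia, which encodes an inhibitor of NF-kB, was lower in plasma cells (258, 139 and 137 CPM), Tnfaip3 in plasmacytoid dendritic cells (154, 88.6 and 96.8 CPM) and Nfkbiz in migratory dendritic cells (95.6, 57.2 and 62.6 CPM). Tnip3 was higher in the last (21.3, 58.8 and 52.2 CPM).

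Endosomal signalling genes and interferon regulatory factors (11 genes) gave 6 higher and 12 lower of 105 pairs and 8 and 6 of 99 in the enriched fraction, and 2 and 6 of 57 and 4 and 3 of 49 in the depleted fraction. Enriched shares were 5.71% and 8.08% higher, beside 5.59% and 8.3% of all pairs, and 11.4% and 6.06% lower, beside 8.32% and 11.5%. Depleted shares were 3.51% and 8.16% higher, beside 7.72% and 9.03%, and 10.5% and 6.12% lower, beside 6.79% and 9.21%. Irf7, a transcription factor of the interferon response, was higher in cDC2 (31.3, 55.6 and 79.0 CPM), while Irf5 was lower there (131, 85.7 and 74.8 CPM). Irf8, a factor that cDC1 need, was lower in neutrophils (50.6, 19.6 and 12.7 CPM). It was higher in migratory dendritic cells of the enriched (235, 397 and 584 CPM) and the depleted fraction (194, 310.1 and 298 CPM).

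Primary response cytokines and enzymes (18 genes) had 17 higher and 25 lower of 120 pairs and 34 and 27 of 119 in the enriched fraction, and 8 and 11 of 42 and 9 and 10 of 38 in the depleted fraction. In the enriched fraction 14.2% and 28.6% were higher, beside 5.59% and 8.3% of all pairs, and 20.8% and 22.7% were lower, beside 8.32% and 11.5%. The depleted shares were 19% and 23.7% higher, beside 7.72% and 9.03%, and 26.2% and 26.3% lower, beside 6.79% and 9.21%. In cDC2 the chemokine genes Ccl3 (37.2, 93.2 and 116 CPM) and Ccl4 (116, 228 and 314 CPM) were higher. Ccl5 was lower in non-classical monocytes (207, 52.5 and 86.8 CPM) and Cxcl1 in migratory dendritic cells (227, 116 and 79.7 CPM). In plasmacytoid dendritic cells Ccl4 (2862, 596 and 716 CPM) and Ccl3 (89.5, 31.1 and 32.3 CPM) were lower. Depleted B cells held Cxcl10 at 0.996, 9.06 and 14.3 CPM and Cxcl1 at 0.356, 4.24 and 7.39 CPM. The same order was seen for Cxcl10 in T cells and Cxcl1 in plasma cells, whereas Cxcl10 in plasma cells (16, 11.8 and 19.3 CPM) did not follow it. Cxcl10 in T cells stood at 3.92, 8.97 and 23.3 CPM and Cxcl1 in plasma cells at 0.452, 1.53 and 2.56 CPM. Lymphatic endothelium of the tumour arms held Cxcl10 at 727 and 1364 CPM and Cxcl1 at 203 and 289 CPM, and the part of its free RNA in the lymphocyte values was not tested.

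Other innate sensors (15 genes) gave 15 higher and 8 lower of 126 pairs and 24 and 13 of 120 in the enriched fraction, and 6 and 7 of 53 and 4 and 5 of 43 in the depleted fraction. The enriched shares were 11.9% and 20% higher, beside 5.59% and 8.3% of all pairs, and 6.35% and 10.8% lower, beside 8.32% and 11.5%. Depleted shares were 11.3% and 9.3% higher, beside 7.72% and 9.03%, and 13.2% and 11.6% lower, beside 6.79% and 9.21%. In cDC2 the RNA sensor Ddx58 (40, 64.7 and 75.7 CPM), its relative Dhx58 (18.3, 27.9 and 32.2 CPM) and the peptidoglycan sensor Nod1 (37.2, 56.4 and 67.1 CPM) were higher. Clec4e, a C-type lectin, was higher in non-classical monocytes (105, 179 and 179 CPM). The nucleic acid sensor Zbp1 was lower in plasma cells (174, 95.5 and 111 CPM). These values share their libraries with the receptors and are given side by side only.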

How the data were processed

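The authors deposited 1 sparse matrix of UMI counts per library (whole-number counts per gene and cell barcode). The submitters' processing notes name Cell Ranger 8.0.1 and the build mm10. Per the file headers, the enriched matrices carry version 8.0.1 and the depleted ones 7.0.0, so fractions were kept apart. Cells with at least 500 UMIs, 300 genes and at most 10% mitochondrial UMIs were kept; the mitochondrial limit removed 4.52% to 12.3%. Scrublet's automatic thresholds marked 0.0115% to 3.22%, so cells above the 95th percentile of scores were removed (4.53% to 4.92%). Clustering used scanpy 1.11.5 (10000 UMIs per cell, 2000 variable genes, 30 components, 15 neighbours, Leiden resolution 1) without Toll-like receptor, haemoglobin, ribosomal, mitochondrial, antigen receptor, Xist and Y-linked genes. Clusters were named from marker lists. No correction was made for free RNA.

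UMIs were summed per class (at least 50 cells) and library. Log2 ratios have conditional binomial, levels Poisson and shares Clopper-Pearson 95% intervals (scipy 1.17.1); precision follows the UMIs behind each value. A pair was called with at least 30 UMIs and 1.5-fold. Ratios are printed for pairs past 1.5-fold in both tumour arms in 1 direction or between them, with an interval that leaves out 0, and for leading classes; pathway genes past 1.5-fold in both tumour arms, at most 4 per list and fraction. Tlr12, other co-receptors and the clusters within classes were named after their values were seen. The members and lists were chosen with earlier results of these data known, and the naming and doublet rules were completed after the data were seen. The alternatives tried were stricter cell filters, doublets kept, other scaling, thinning, resolutions 0.5 and 2, other UMI minimums and a fold of 2. For each class, only the cluster with most cells in its smallest library, and shallow clusters left out, were added after seeing the data.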

Additional observations from a re-analysis of the deposited data

Results flagged for a closer look

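A comparison between arms was listed here if it had at least 30 UMIs in each fraction and opposite directions in the fractions. A ratio of the comparison also had to be past 1.5-fold, with an interval that left out 0. By this rule 4 comparisons were listed, and none was tested for the difference between fractions. Smaller opposite differences were left out, such as Tlr7 in B cells (39.1, 29.0 and 34.5 CPM enriched, 32.5, 35.7 and 38.6 CPM depleted). Tlr1 in T cells, YUMMER1.7 against YUMM1.7, had a log2 ratio of -0.22 (-0.80 to 0.37) in the enriched and 0.68 (0.03 to 1.30) in the depleted fraction. Tlr11 in migratory dendritic cells, YUMMER1.7 against naive, had -1.53 (-1.92 to -1.16) and 0.87 (-0.29 to 2.13). Tlr1 in migratory dendritic cells, YUMMER1.7 against YUMM1.7, had 0.038 (-0.34 to 0.42) and -1.37 (-2.58 to -0.28). Tlr13 in the same cells and comparison had 0.89 (0.41 to 1.39) and -0.069 (-0.81 to 0.66).

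Tlr7 also appeared in a cluster outside the named classes. Cluster 2 of the depleted fraction, with Mybl1 and Rgs13 among its leading genes, had 18.9 CPM (14.9 to 23.5) in the YUMMER1.7 library against 10.2 CPM in naive, on 143 and 250 cells.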

How the results depend on the processing

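Of the log2 ratios recomputed under the alternatives, 578 stayed within their counting interval, 53 moved further and 3 values that had been past 1.5-fold changed sign. Those 3 were Tlr4 in cDC2, YUMM1.7 against naive, with doublets kept (-0.014) and at Leiden resolution 0.5 (-0.14), and Tlr1 in depleted migratory dendritic cells, YUMMER1.7 against naive, after thinning (0.17). Among ratios under 1.5-fold the sign changed in 61 further cases, 40 within and 21 beyond the interval. Of the levels, 291 stayed within their interval and 60 did not. The counts of called pairs were most affected by the UMI minimum and the fold. Without a UMI minimum the 6 counts (enriched YUMM1.7 and YUMMER1.7 against naive and YUMMER1.7 against YUMM1.7, then depleted) went from 9, 12, 12, 3, 4 and 6 to 38, 36, 34, 26, 26 and 32. With 100 UMIs they were 6 and 7 for enriched YUMMER1.7 against naive and against YUMM1.7 and 1, 0 and 3 in the depleted fraction. A fold of 2 gave 2, 7 and 2 in the enriched fraction and 2 and 2 for the same comparisons of the depleted fraction. With doublets kept the enriched counts against naive were 14 and 21. For enriched YUMM1.7 against naive, resolution 2 gave 16 and 1 cluster per class gave 3, and thinning gave 3 for depleted YUMMER1.7 against YUMM1.7. The cause was not tested. No paired analysis was possible because each arm had 1 library per fraction, which also left no replicate to leave out. Depth limits Tlr9 everywhere and Tlr8 in the depleted fraction.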

Other observations

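An unnamed cluster of the depleted fraction, cluster 14, whose leading genes mix myeloid and mast cell genes (Lyz2, S100a8 and Mcpt4), had Tlr3 at 46.1 CPM in naive, 32.2 CPM in YUMM1.7 and 3.65 CPM in YUMMER1.7, on 91, 78 and 9 UMIs and 146, 181 and 112 cells. Tlr13 there stood at 10.6, 5.37 and 4.46 CPM. These values belong to no named class and are given as measured.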
